A study of Mus musculus with 68 samples.

Results

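Amino acid and peptide carriers move the products of protein digestion across the intestinal wall and feed the cells of that wall. The carriers described here are the 67 rows, of 23356 in the table, whose symbols belong to the solute carrier families Slc1, Slc3, Slc6, Slc7, Slc15, Slc36, Slc38 and Slc43. They were chosen by symbol alone. Of the 67, 66 are carriers or their partner subunits, and Slc7a6os is a neighbouring gene whose name matches the rule but which encodes no carrier. Transcript levels are FPKM values, which are scaled by transcript length and by library size. They are relative levels. Their sums over all genes ran from 476233 to 801309 between columns, so comparisons between specimens are approximate.

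An enterocyte, the absorptive cell of the gut lining, takes up free amino acids and small peptides through apical carriers coupled to sodium or protons, and releases amino acids to the blood through basolateral carriers. Several of these work as pairs of a light chain, which transports, and a heavy chain (Slc3a1 at the apical side, Slc3a2 at the basolateral side and in dividing cells), which brings the pair to the membrane. Growing cells use a partly different set, including exchangers for leucine, glutamine and cystine, to supply protein synthesis and to keep glutathione reduced.

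The study asked what loss of Cftr, the chloride channel mutated in cystic fibrosis, does in the intestine of mice with a normal Apc gene and of ApcMin mice, which carry a truncating Apc allele and form intestinal tumours. Mice of all groups were C57BL/6 and are labelled as 3 month old, and the growth protocol gives 12 weeks. Apc+ mice were Cftr wildtype or carried floxed Cftr with Villin-Cre, which acts in the intestinal epithelium. From Apc+ Cftr wildtype and Apc+ Cftr knockout mice there were 2 specimens each of colon and of duodenum. Tumours of Apc+ Cftr knockout mice numbered 2 in the duodenum and 1 in the colon. Those of ApcMin mice were, with wildtype Cftr, 2 from colon and 2 from ileum, with heterozygous Cftr (labelled knockdown), 2 from colon and 2 from duodenum, and with knockout Cftr, 2 from colon and 2 from ileum. Which Cftr alleles and which Cre these ApcMin mice carried is not given in the sources used here. In all there were 23 specimens in 12 groups from 10 animal numbers. Normal colon and normal duodenum of the same Apc+ genotype and replicate number came from 1 animal. The colon tumour and duodenal tumour 2 of the Apc+ knockout mice also share 1 animal number, and duodenal tumour 1 has another. Labels call the colon whole tissue and the duodenum epithelium, while the design text speaks of epithelial cells of the colon and of duodenum without villi. In the data, 4 of 8 smooth muscle and 10 of 11 enteric neuron and glia markers were lower in duodenum than in colon, and none higher. By the same test, 27.1% of all tested genes were lower there and 28.5% higher. The specimens of each ApcMin group carry 1 animal number, so genotype and animal cannot be told apart there, and p-values between those groups measure the spread between pieces of tissue. In comparisons with normal tissue, too, each ApcMin group enters as 2 pieces of 1 animal. Those p-values do not measure the spread between ApcMin mice of 1 group.

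Each specimen was sequenced on 2 lanes in run 1, run 2 or both, and columns were averaged per specimen. Relative depth of the columns spanned 1.84-fold. Cftr itself ran from 25.9 to 47.2 FPKM in the libraries labelled knockout from normal tissue and from 21.7 to 32.0 FPKM in the wildtype ones. A value over the whole gene does not test the deletion of some exons. Xist, transcribed in female cells, was 24.0 to 55.6 FPKM in the 12 ApcMin specimens, 34.2 FPKM in duodenal tumour 1 of the Apc+ knockout mice, and 0.0212 to 0.461 FPKM in the other 10 specimens, so sex cannot be told apart from Apc genotype where ApcMin tumours are set against normal tissue. The 2 wildtype duodenum specimens, from different animal numbers, differed by no more than their lanes did (ratio of the SDs 0.968 in run 1 and 0.995 in run 2) and were counted as 1 sample. The run 1 library of wildtype colon 2 stood apart from its run 2 library (SD of the difference 0.433, against 0.129 to 0.201 in the other specimens in both runs) and held small-intestinal transcripts. In some small-intestinal genes, duodenal tumour 2 of the ApcMin heterozygous mouse stood apart from its label. In it, and in duodenal tumour 1 of the same group, the duodenal protease Tmprss15 was 0.00988 and 11.6 FPKM, the lactase gene Lct 2.36 and 141, the fatty acid binding protein Fabp1 148 and 5556, the proximal gut factor Gata4 13.5 and 52.5 and the peptidase Naaladl1 1064 and 66.2. Normal duodenum held 23.9 to 34.1, 184 to 279, 6790 to 8202, 65.0 to 76.1 and 84.8 to 165 FPKM of these genes, and the 4 ApcMin ileum tumours 0.00953 to 0.510, 0.296 to 47.7, 38.1 to 1434, 5.02 to 29.5 and at most 714 FPKM. Both tumours lay outside the duodenum values for all 5 genes, tumour 2 farther than tumour 1, and tumour 2 lay among the ileum tumours for the first 4. The 5 genes were chosen after their values were seen. Other genes, also chosen so, went the other way. Slc43a2, Slc7a7, Slc6a20a and Slc7a15 were 122.5, 155.1, 106.9 and 60.0 FPKM in tumour 2. The ileum tumours held at most 52.8, 82.0, 55.3 and 46.2 FPKM of them, and normal duodenum 137 to 152, 165 to 186, 60.2 to 172 and 61.3 to 64.0 FPKM. The specimen is called duodenal tumour 2 below as labelled. Smooth muscle markers summed to 2404 to 3025 FPKM in normal colon, 817 to 883 FPKM in normal duodenum and 126 to 984 FPKM in ApcMin colon tumours. In such bulk tissue, fewer cells of a type and less RNA per cell cannot be told apart.

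Of the 67 members, 54 were above 0 in every specimen and 48 reached 1 FPKM in at least 2 specimens and were tested. By role, the tested members were 8 apical absorptive carriers, 3 basolateral exit carriers, 11 growth-type carriers, 5 lysosomal and intracellular carriers, 10 carriers of neurotransmitters and osmolytes, 10 others, and Slc7a6os. The 19 members not tested stayed at or under 1.22 FPKM in every specimen. In each comparison below, "called" means an adjusted p under 0.05 in limma over all 14098 genes tested, and changes are differences in log2(FPKM + 1), which understate the change of low genes.

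**Figure D1:**
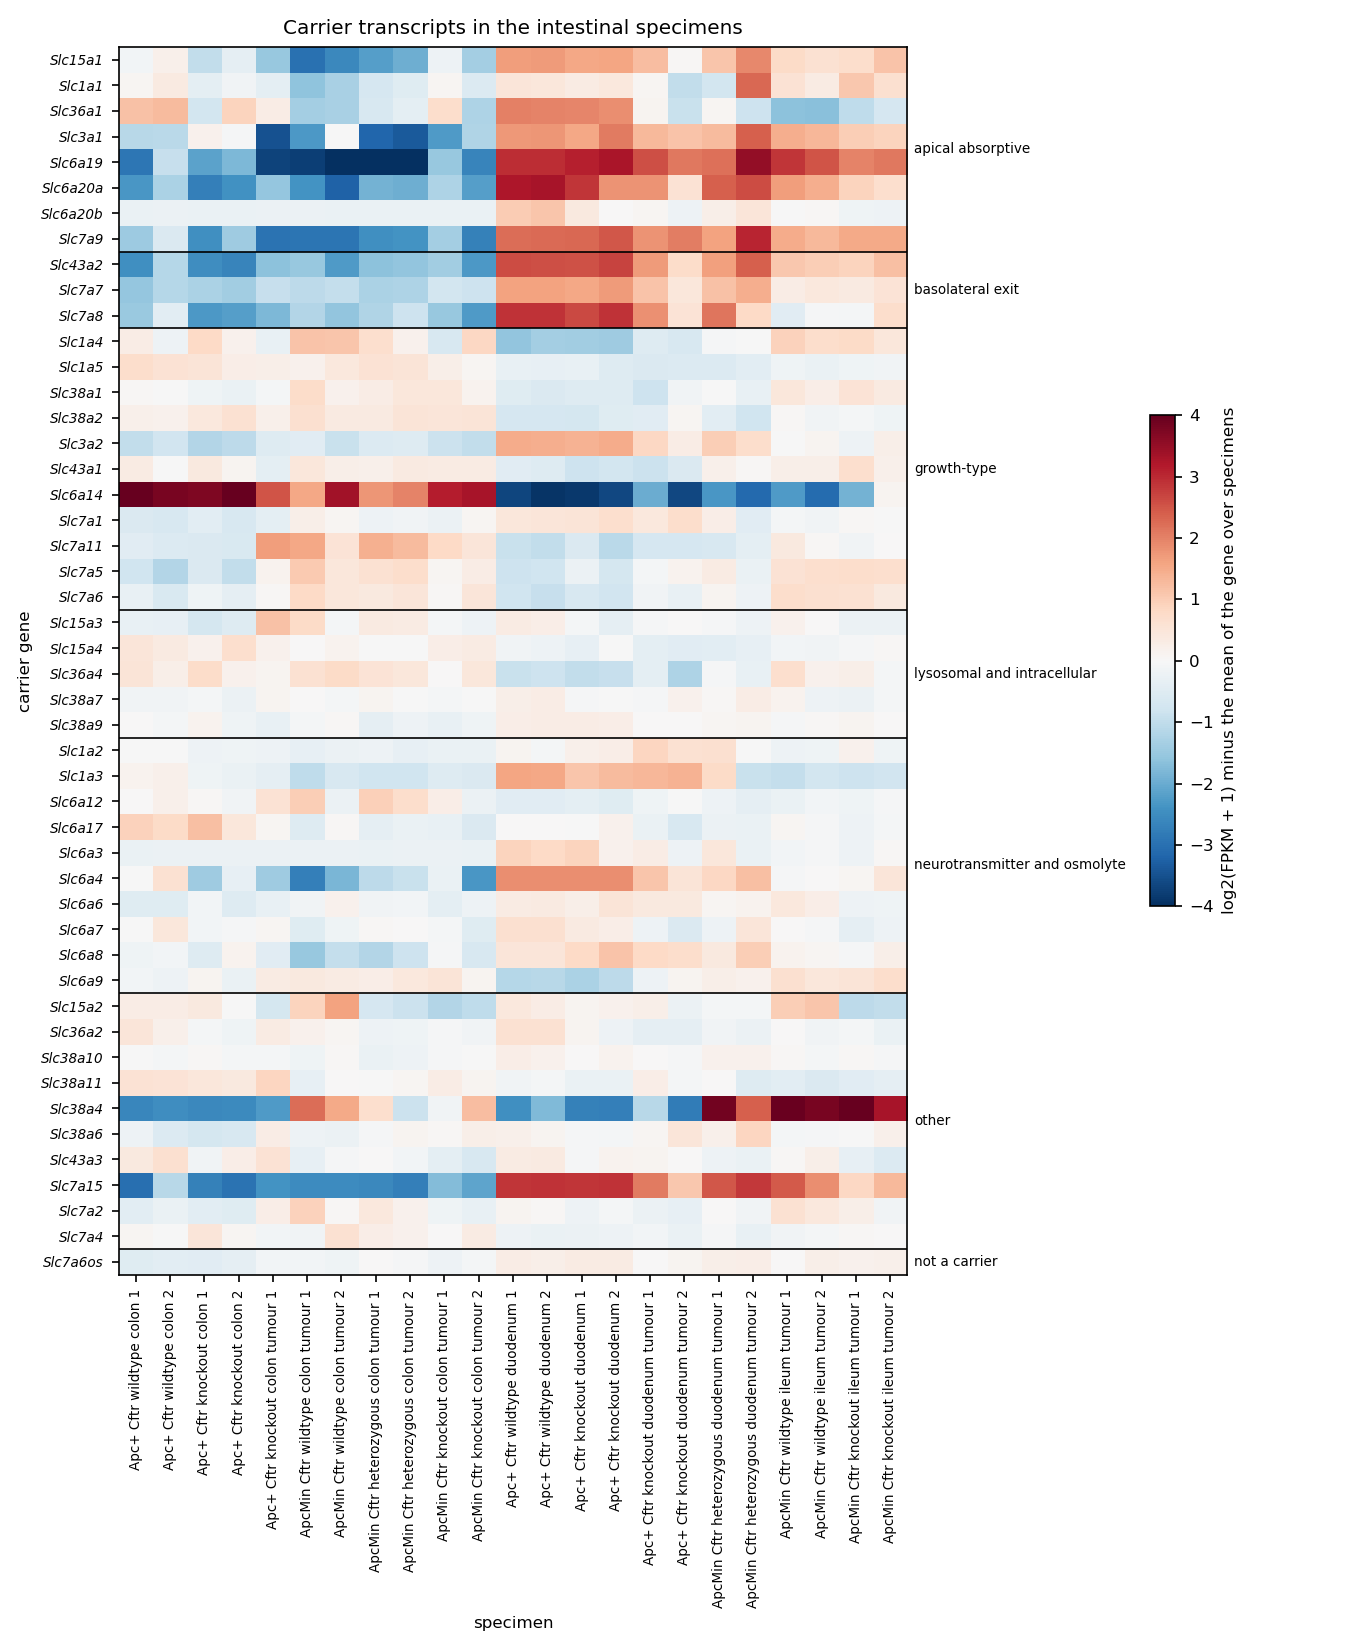
Heat map of the 48 tested members (rows, grouped by role) in the 23 specimens (columns), coloured by log2(FPKM + 1) minus the mean of the gene over specimens, with values beyond 4 drawn at 4. Most apical and basolateral absorptive carriers are high in duodenum and in duodenal and ileum tumours, Slc6a14 is high in colon, and Slc38a4 is high in the ApcMin tumours.

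The comparison with the most called members was that of normal duodenum with normal colon, in which absorptive carriers were higher in duodenum and Slc6a14 higher in colon. Of the 48 tested members, 23 were called higher in duodenum and 11 higher in colon, 70.8% in all, where 55.6% of all tested genes were called. All 8 apical absorptive carriers had a positive change and 7 were called higher, and all 3 basolateral carriers were called higher, beside 28.5% of all genes called higher. The medians of these 2 lists were 2.12 and 4.43, against 0.02 for all genes. Without the run 1 library of wildtype colon 2, 23 and 12 members were called, 72.9% beside 56.2% of all genes, and the medians were 2.19 and 4.61. In the values that follow, each group is its 4 specimens of both Cftr genotypes.

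Slc6a19, the sodium-coupled carrier of neutral amino acids at the brush border, had the highest level of the apical carriers in duodenum. The gene lies at chr13:73679745-73704865 (GRCm38, GENCODE M21, as for the other positions given). It measured 274 and 271 FPKM in wildtype duodenum, 306 and 338 in knockout duodenum, 3.79 and 17.8 in wildtype colon, and 7.11 and 9.28 in knockout colon. The groups did not overlap, and its change was 5.0 (SE 0.45, adjusted p = 1.47e-06). The 17.8 of wildtype colon 2 averaged 32.0 in run 1 and 3.65 in run 2, and without the run 1 library the change was 5.50. Slc15a1, the proton-coupled uptake carrier for di- and tripeptides, differed less. It lies at chr14:121459621-121505252 and stood at 202 to 225 FPKM in duodenum and at 34.7 to 79.0 FPKM in colon (log2 change 1.93, SE 0.33, adjusted p = 0.000333). On this scale, which is per length, Slc15a1 was the apical carrier with the highest level in 3 of 4 colon specimens, and in knockout colon 1 Slc3a1 was slightly higher, at 36.02 FPKM.

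The cystine and dibasic amino acid exchanger of the brush border is a pair of the light chain Slc7a9 and the heavy chain Slc3a1. Slc7a9 was 148 to 176 FPKM in duodenum and 4.86 to 20.2 FPKM in colon (log2 change 3.80, SE 0.38, adjusted p = 4.29e-06). Slc3a1 was 96.5 to 139.5 FPKM in duodenum and 14.4 to 36.02 FPKM in colon (log2 change 2.31, SE 0.45, adjusted p = 0.000809). In colon, Slc3a1 exceeded Slc7a9 in 3 of 4 specimens, most in the knockout ones (36.02 against 4.86 FPKM and 30.9 against 10.9 FPKM), while in duodenum Slc7a9 exceeded Slc3a1 in all 4. Without the run 1 library of wildtype colon 2 the changes of Slc15a1, Slc7a9 and Slc3a1 were 1.94, 3.97 and 2.44. Exons of Slc3a1 and of Prepl, on the opposite strand, share 601 bases. The sources used here do not say that counting used strand, so reads of such shared bases may come from either gene, here and for the other overlaps given.

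The 250 bases upstream of the annotated start of Slc3a1 (RefSeq, GRCm38.p6, chr17:85028097-85028346, plus strand) are shown because they are the only window among the 37 tested members with a RefSeq promoter that holds CAAAGTCCA, a form of the element bound by HNF4 factors of the intestinal epithelium. Capitals mark that match, 39 bases before the start.
Slc3a1: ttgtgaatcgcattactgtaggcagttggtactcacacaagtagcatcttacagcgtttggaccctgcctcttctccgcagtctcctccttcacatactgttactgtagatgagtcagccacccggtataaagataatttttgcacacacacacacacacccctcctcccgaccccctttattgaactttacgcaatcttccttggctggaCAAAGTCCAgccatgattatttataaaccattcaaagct
The letters CAAAGTCCA, on either strand, occur in 0.384% of 32851 such windows of all genes. The motifs searched, on both strands, were this one, the ATF4 core TGATGNAA, the palindromic HNF1 element, the TCF core CTTTGAT, the TATA box TATAAA, the E-box CACGTG and the GATA form TGATAA. A match is a description of letters and not a site in use. The window above also holds TATAAA, which does not overlap the capitals and which 12.4% of windows hold.

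Slc6a20a, which carries proline, was 165 and 172 FPKM in wildtype duodenum, 127 and 60.2 FPKM in knockout duodenum, and 1.64 to 6.45 FPKM in colon (log2 change 4.98, SE 0.38, adjusted p = 4.02e-07). Its near copy Slc6a20b stayed under 2 FPKM throughout. The copies share part of their sequence (15.3% of the 50-base words of Slc6a20a occur in Slc6a20b), so their split is uncertain. Slc36a1, a proton-coupled carrier of small neutral amino acids, was 74.1 to 81.7 FPKM in duodenum and 11.2 to 47.9 FPKM in colon (log2 change 1.31, SE 0.46, adjusted p = 0.0274), where knockout colon 1 was the lowest. Without the run 1 library of wildtype colon 2 the changes of Slc6a20a and Slc36a1 were 5.13 and 1.33. Slc1a1, which takes up glutamate, aspartate and cysteine, was 17.2 to 19.6 FPKM in duodenum and 10.2 to 17.9 FPKM in colon, and was the 1 apical carrier not called (log2 change 0.44, SE 0.53, adjusted p = 0.509). It overlaps 4430402I18Rik on the opposite strand by 2631 exon bases.

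The 3 basolateral carriers had the following levels. Slc43a2, a facilitated exit path for large neutral amino acids, was 137 to 152 FPKM in duodenum and 2.80 to 9.74 FPKM in colon (log2 change 4.78, SE 0.35, adjusted p = 2.77e-07). Slc7a8, an exchanger of neutral amino acids, was 106 to 127 against 2.50 to 11.9 FPKM (log2 change 4.43, SE 0.40, adjusted p = 1.51e-06). In both genes the highest colon value was that of wildtype colon 2, and without its run 1 library the changes were 5.10 and 4.61. Slc7a7, which exchanges cationic for neutral amino acids, was 165 to 186 against 18.7 to 24.8 FPKM (log2 change 2.96, SE 0.15, adjusted p = 1.9e-08). Slc3a2, the heavy chain shared by Slc7a7, Slc7a8 and the leucine exchanger Slc7a5, was 152 to 162 against 24.8 to 33.4 FPKM (log2 change 2.44, SE 0.15, adjusted p = 8.95e-08). Slc3a2 was counted with the growth-type list, and here it was high where its absorptive partners were. Slc7a15, another light chain of this family, measured 61.3 to 64.0 FPKM in duodenum and at most 3.03 FPKM in colon (log2 change 5.32, SE 0.37, adjusted p = 2.25e-07), and in the colon specimen with that value it was 5.98 in run 1 and 0.0901 in run 2. Without that run 1 library the change of Slc7a15 was 5.79, that of Slc7a7 3.06 and that of Slc3a2 2.51.

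**Figure D2:**
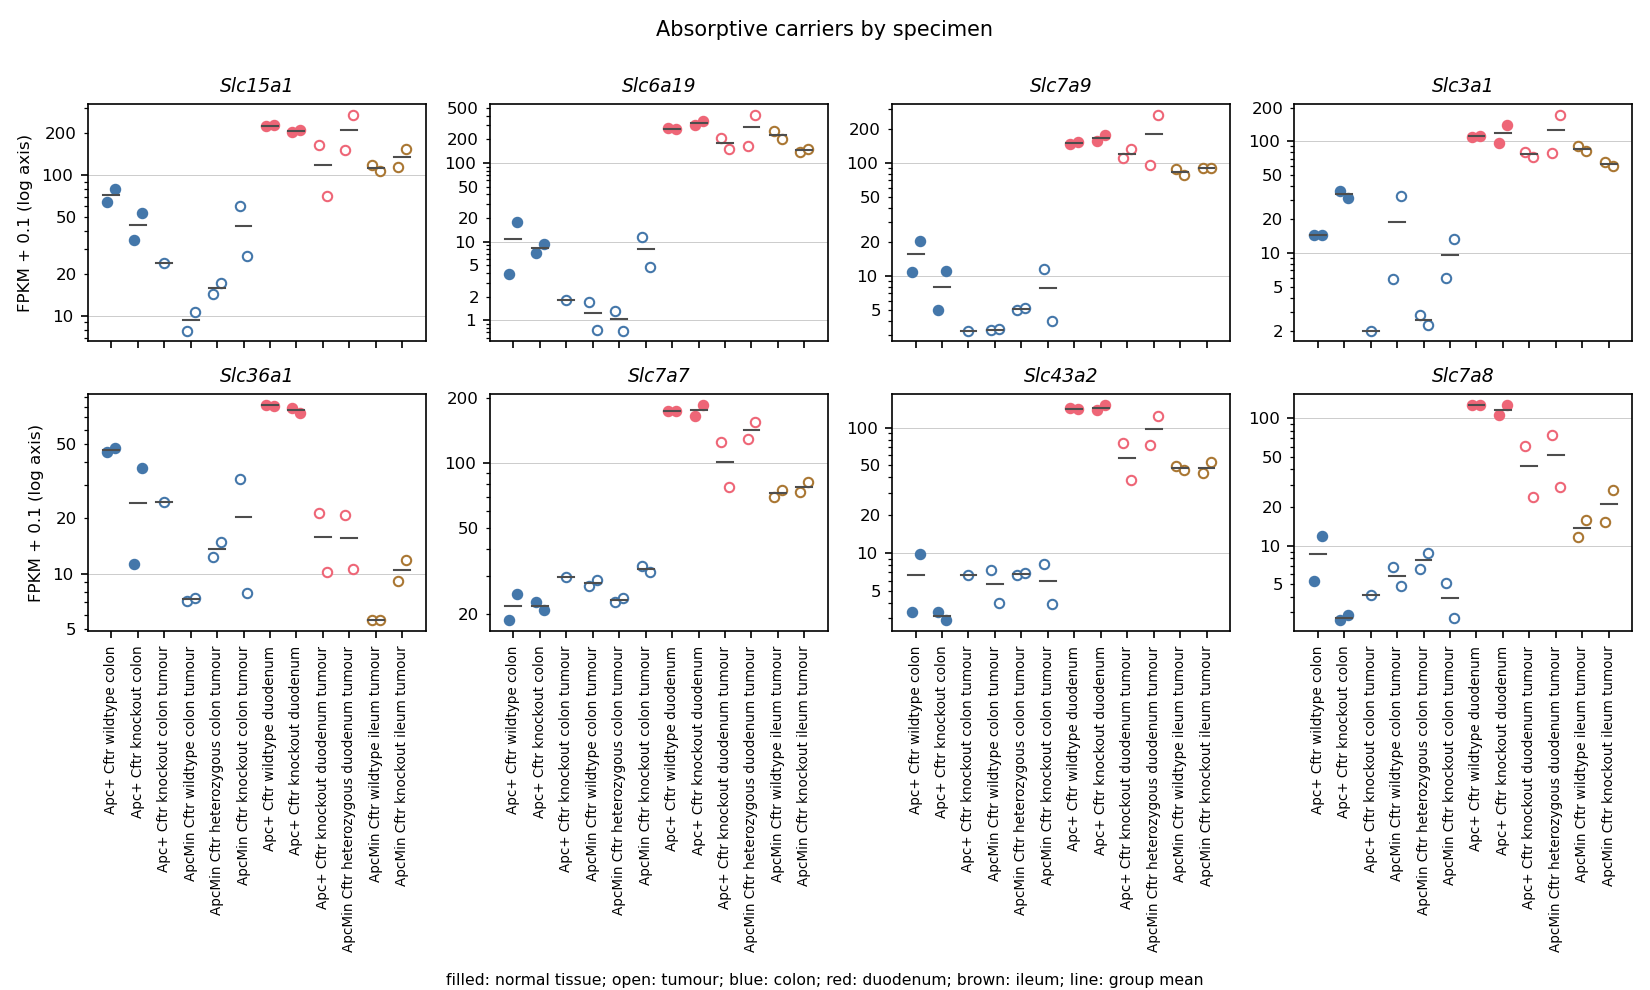
FPKM plus 0.1, on a log axis, of 8 absorptive carriers in each of the 23 specimens (points) by group, with lines at group means. In normal tissue every duodenum specimen lies above every colon specimen for each of the 8 genes, and Slc36a1 is at or under 21.3 FPKM in every duodenal and ileum tumour.

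Most called members of the growth-type list were higher in colon. Of 11 tested, 6 were called higher in colon and 2 (Slc3a2 and Slc7a1) higher in duodenum, beside 27.1% and 28.5% of all genes. Slc6a14, a sodium- and chloride-coupled carrier of most neutral and cationic amino acids (chrX:21714896-21742355), was 294 and 244 FPKM in wildtype colon, 235 and 297 in knockout colon, and 0.175 to 0.421 FPKM in duodenum (log2 change -7.68, SE 0.54, adjusted p = 2.26e-07). It was the member with the highest level in normal colon. Slc1a5, the main glutamine exchanger of growing cells, was 51.8 to 70.8 FPKM in colon and 29.7 to 35.4 FPKM in duodenum (log2 change -0.87, SE 0.09, adjusted p = 7.43e-06). Slc38a2, a sodium-coupled carrier that cells induce when amino acids run short, was 42.2 to 56.9 FPKM in colon and 22.4 to 26.3 FPKM in duodenum (log2 change -0.98, SE 0.14, adjusted p = 5.69e-05). Slc1a4, which exchanges alanine and serine, was 8.35 to 17.7 FPKM in colon and 2.64 to 3.24 FPKM in duodenum (log2 change -1.69, SE 0.29, adjusted p = 0.000285). The cationic amino acid carrier Slc7a1 was 14.2 to 16.4 FPKM in duodenum and 5.99 to 7.29 FPKM in colon (log2 change 1.10, SE 0.15, adjusted p = 5.35e-05). The leucine exchanger Slc7a5 overlapped between duodenum and colon, at 5.30 to 8.54 and 4.02 to 6.55 FPKM, and was not called (log2 change 0.24, SE 0.19, adjusted p = 0.311).

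Among carriers with other substrates, 5 of 10 on the neurotransmitter and osmolyte list were called higher in duodenum and 2 higher in colon, beside 28.5% and 27.1% of all genes. The serotonin carrier Slc6a4 was 41.7 to 42.5 FPKM in duodenum and 3.42 to 17.1 FPKM in colon (log2 change 2.16, SE 0.43, adjusted p = 0.000991). The creatine carrier Slc6a8 was 192 to 304 against 95.7 to 149 FPKM (log2 change 0.90, SE 0.21, adjusted p = 0.00332). With the Cftr wildtype groups alone, a contrast added after the data were seen, neither passed (adjusted p = 0.0898 and 0.162). The taurine carrier Slc6a6 was 51.1 to 62.7 against 30.01 to 39.7 FPKM (log2 change 0.76, SE 0.11, adjusted p = 0.0001). The glycine carrier Slc6a9 was higher in colon, at 5.92 to 7.92 against 2.48 to 3.05 FPKM (log2 change -1.02, SE 0.13, adjusted p = 2.63e-05), and overlaps Ccdc24 on the opposite strand by 1429 exon bases.

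Enzymes of peptide digestion, and partners that hold carriers at the brush border, followed the absorptive side. Of 12 tested genes of that list, 11 were called higher in duodenum and 1, the protease Mep1a, lower, beside 28.5% and 27.1% of all genes. The median change of the list was 3.91. Ggt1, which splits glutathione at the cell surface, differed by 5.19 (adjusted p = 1.9e-08), the proline dipeptidase Pepd by 3.27 (adjusted p = 1.01e-07) and the aminopeptidase Enpep by 5.66 (adjusted p = 1.23e-06). The sensors of amino acids upstream of the growth kinase mTORC1 were mixed, with 3 of 17 higher and 5 lower, and so were regulators of gut segments and growth, with 4 of 11 higher and 4 lower. Of all genes, 28.5% were called higher and 27.1% lower.

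Cftr knockout was not accompanied by a called change of any carrier in normal tissue. In colon 0 of 48 members and 0% of all genes were called, and in duodenum likewise 0 of 48 and 0%. At an unadjusted p under 0.05 in limma there were 4 members in colon (Slc36a2, Slc43a3, Slc7a8 and Slc1a5, all lower in the knockout) of 948 genes, and 2 in duodenum (Slc6a20b and Slc36a2, both lower) of 368 genes; these names were taken after their values were seen. Slc7a8 was 2.50 and 2.75 FPKM in knockout colon and 5.16 and 11.9 in wildtype colon, of which the last includes the library that stood apart and was 6.81 FPKM in run 2 alone. Without that library its change went from -1.30 to -0.94, and again 0 of 48 members and 0% of all genes were called. In that fit 5 members had an unadjusted p under 0.05 in limma, and the number over all genes was not counted. The 5 were Slc36a2, Slc43a3 and Slc1a5 and the apical Slc3a1 and Slc6a19, but not Slc7a8. The 2 apical ones were higher in the knockout. Slc3a1 was 36.02 and 30.9 FPKM in knockout colon and 14.4 and 14.5 in wildtype colon, without overlap. Slc6a20b was 0.548 and 0.198 FPKM in knockout duodenum and 1.43 and 1.56 in wildtype duodenum, and was called when those wildtype specimens were counted as 2 samples. The peptide carrier Slc15a1 was 34.7 and 54.0 FPKM in knockout colon and 64.5 and 79.0 in wildtype colon, without overlap, and did not pass (log2 change -0.71, SE 0.42, adjusted p = 0.825). Small-intestinal enterocyte markers summed to 633 to 1211 FPKM in the knockout colon specimens, and to 441 and 1461 FPKM in wildtype colon 1 and 2. Without its run 1 library wildtype colon 2 held 309 FPKM of them, so that the knockout specimens lay among the wildtype ones with that library and above both without it. Of the 8 apical carriers 7 had a negative change with the library (median -0.60) and 5 without it (median -0.50), and the change of Slc6a19 went from -0.06 to 0.95. The part of these cells in the carrier values was not tested.

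Colon tumours of ApcMin mice with wildtype or heterozygous Cftr had lower levels of several apical carriers than normal colon. Higher levels of several growth-type carriers were seen in ApcMin colon tumours of each Cftr genotype. Wildtype and knockout tumours were compared with colon within run 2, and heterozygous tumours within run 1, against the same 4 colon specimens. In run 2, 12 members were called higher and 12 lower, 50% of 48 beside 45.4% of all genes. In run 1, 10 were called higher and 10 lower, 41.7% beside 53.2%. The first share lay above and the second below that of all genes. Without the run 1 library of wildtype colon 2 the second comparison called 17 members (35.4% beside 45.4%), and Slc38a1 was no longer among them (adjusted p = 0.075). The number called there fell without heterozygous tumour 1 or 2, which leaves 1 specimen in that group. In run 2, the Cftr knockout tumours against knockout colon alone gave 7 members, beside 1534 of all 14098 genes. That contrast was added after the data were seen.

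On the growth-type list, 4 of 11 were called higher in the run 2 comparison (Slc7a1, Slc7a5, Slc7a6 and Slc7a11) and 4 in the run 1 comparison (Slc7a5, Slc7a6, Slc7a11 and Slc38a1), beside 22.3% and 26.8% of all genes called higher. Slc7a5 was 22.4 and 14.3 FPKM in wildtype tumours, 10.9 and 12.8 in knockout tumours and 4.00 to 6.46 in colon of the same run (log2 change 1.32, SE 0.16, adjusted p = 0.00026). It was 16.3 and 17.3 FPKM in heterozygous tumours and 4.04 to 6.64 in colon of run 1 (log2 change 1.56, SE 0.21, adjusted p = 0.000473). All 6 ApcMin colon tumours thus exceeded every colon specimen. Its heavy chain Slc3a2 was not called in either comparison, at 28.9 to 41.3 FPKM in these tumours. In run 1 Slc3a2 was 39.4 and 39.95 FPKM in heterozygous tumours and 24.9 to 29.2 in colon, apart from 39.7 in wildtype colon 2. The missing call of Slc3a2 in run 1 depended on that library, the one that stood apart. Slc7a6, an exchanger of the same family, was 6.19 to 11.1 FPKM in wildtype and knockout tumours and 3.69 to 5.17 in colon (log2 change 0.77, SE 0.12, adjusted p = 0.000678), and with the knockout groups alone its adjusted p was 0.0808. In run 1 it was 8.15 and 8.72 FPKM in tumours and 3.45 to 5.22 in colon (log2 change 0.84, SE 0.14, adjusted p = 0.00168).

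Slc7a11, the cystine-glutamate exchanger that supplies cysteine for glutathione (chr3:49892526-50443614), rose from a low level. It was 5.97 and 2.46 FPKM in wildtype tumours, 3.07 and 2.31 in knockout tumours and 0.616 to 0.827 in colon (log2 change 1.32, SE 0.20, adjusted p = 0.000707). In run 1 it was 5.37 and 4.66 FPKM in heterozygous tumours and 0.478 to 0.649 in colon (log2 change 1.96, SE 0.14, adjusted p = 3.34e-05). In duodenal and ileum tumours it stayed at or under 2.11 FPKM. The 250 bases before its start (RefSeq, GRCm38.p6, chr3:50443614-50443863, minus strand) are shown because they hold, more than once, the letters TGATGNAA, the core of the element bound by ATF4, the factor of the amino acid response. Capitals mark the matches at 66 and 47 bases before the start, the second in the opposite orientation.
Slc7a11: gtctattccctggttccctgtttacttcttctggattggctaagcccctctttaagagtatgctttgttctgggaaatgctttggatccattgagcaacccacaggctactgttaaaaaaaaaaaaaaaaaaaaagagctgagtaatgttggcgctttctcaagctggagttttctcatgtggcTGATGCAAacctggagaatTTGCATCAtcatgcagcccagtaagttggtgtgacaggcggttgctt
TGATGNAA occurs in 3.45% of the 32851 windows and, among the 37 members with a window, also in Slc7a7. Of the 16 tested genes of the amino acid response list itself, 10 were called higher and 1 (Ddit3) lower in the run 2 comparison, and 8 higher and 1 (Ddit3) lower in the run 1 comparison. Of all genes, 22.3% were called higher and 23.1% lower in run 2, and 26.8% and 26.5% in run 1. The serine synthesis enzymes Phgdh and Psat1 differed by 1.21 (adjusted p = 0.000204) and 1.26 (adjusted p = 0.000247) in run 2. Atf4 itself was not called in either, with changes of 0.23 (adjusted p = 0.0747) and 0.08 (adjusted p = 0.436).

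**Figure D3:**
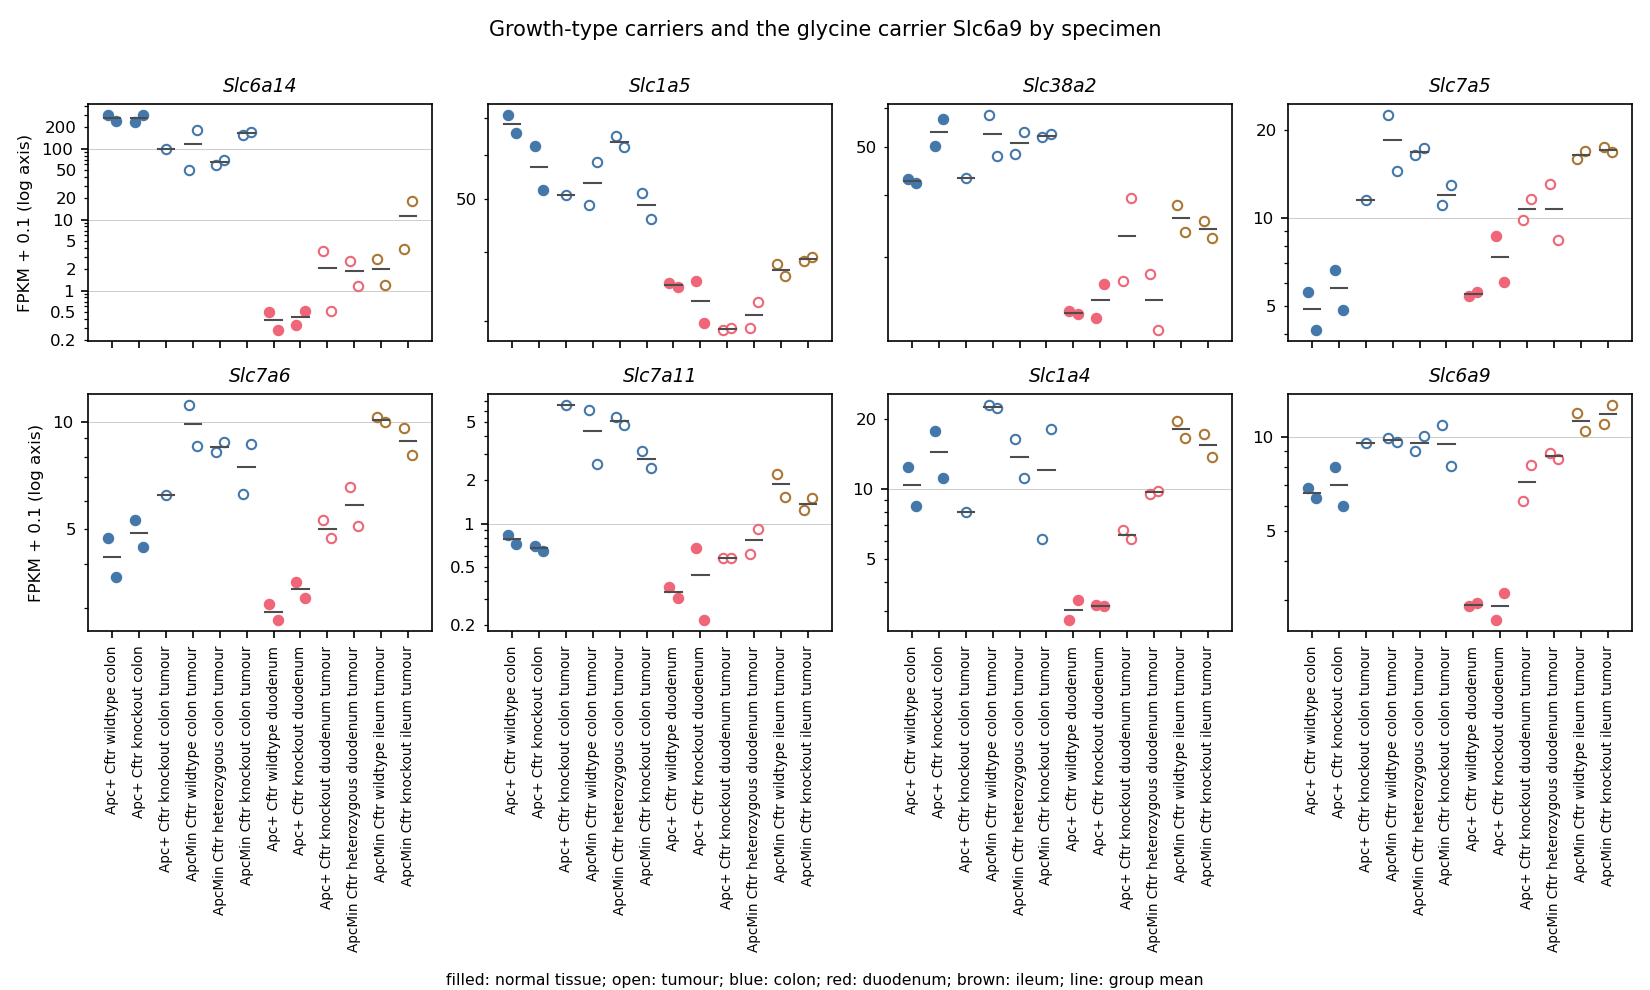
FPKM plus 0.1, on a log axis, of 7 growth-type carriers and of Slc6a9 in each of the 23 specimens (points) by group, with lines at group means. All 7 colon tumours exceed the 4 normal colon specimens for Slc7a5, Slc7a6, Slc7a11 and Slc6a9, and Slc6a14 is over 50 FPKM in every colon specimen and under 20 FPKM in every other.

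Slc6a14, high in colon, was lower in the heterozygous tumours. It was 58.8 and 69.5 FPKM there and 219 to 284 in colon of run 1 (log2 change -1.95, SE 0.55, adjusted p = 0.0174). Without heterozygous tumour 1 or 2 its adjusted p was 0.102 and 0.0712, and with a pseudocount of 0.1 it was 0.102. In wildtype tumours it was 50.4 and 182 FPKM and in knockout tumours 157 and 174, below the 250.1 to 310.3 of colon in run 2, and was not called (log2 change -1.16, SE 0.45, adjusted p = 0.0548). The glutamine carrier Slc1a5 was 45.9 to 58.1 FPKM in wildtype and knockout tumours and 51.4 to 70.6 in colon, and was called lower (log2 change -0.30, SE 0.08, adjusted p = 0.0153), with overlap.

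Of the 8 apical carriers, 5 were called lower in wildtype and knockout tumours (Slc15a1, Slc36a1, Slc1a1, Slc7a9 and Slc6a19) and 3 in heterozygous tumours (Slc15a1, Slc6a19 and Slc3a1), beside 23.1% and 26.5% of all genes called lower. Slc15a1 was 7.78 and 10.6 FPKM in wildtype tumours, 14.2 and 17.2 in heterozygous tumours, 60.0 and 26.6 in knockout tumours, and 37.3 to 75.4 in colon of run 2. The wildtype and heterozygous tumours and knockout tumour 2 lay below all colon specimens, and knockout tumour 1 lay among them. Its change was -1.50 in run 2 (SE 0.29, adjusted p = 0.00238) and -1.75 in run 1 (SE 0.35, adjusted p = 0.00365). With the wildtype groups alone the run 2 change was -2.82 (adjusted p = 0.00112), and with the knockout groups alone -0.17 (adjusted p = 0.814).

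For Slc36a1 and Slc1a1, too, the call did not hold with the knockout groups alone. Slc36a1 was 7.05 and 7.31 FPKM in wildtype tumours, 32.5 and 7.78 in knockout tumours and 13.1, 36.2, 46.0 and 46.4 in the 2 knockout and 2 wildtype colon specimens of run 2 (log2 change -1.47, SE 0.40, adjusted p = 0.0126). Without knockout colon 2 its change was -1.12 (adjusted p = 0.0506), and with the knockout groups alone -0.42 (adjusted p = 0.661). Slc1a1 was 3.75 to 4.95 FPKM in wildtype tumours, 9.01 to 14.4 in knockout tumours and 10.3 to 18.1 in colon (log2 change -0.86, SE 0.21, adjusted p = 0.00807), and with the knockout groups alone the adjusted p was 0.999. Slc3a1 was 2.68 and 2.19 FPKM in heterozygous tumours and 14.8 to 36.8 in colon of run 1 (log2 change -2.86, SE 0.29, adjusted p = 0.000148; without the wildtype colon 2 library -2.77). Slc6a19 was 1.21 and 0.639 FPKM in heterozygous tumours and 3.87 to 32.0 in colon of run 1 (log2 change -2.50, SE 0.66, adjusted p = 0.0131). Its highest colon value is that of the library that stood apart, and without it the change was -1.81 (adjusted p = 0.00652). Without heterozygous tumour 1 or 2 the adjusted p was 0.0544 and 0.089. Markers of colonocytes summed to 3306 to 6241 FPKM in normal colon and 296 to 2955 in ApcMin colon tumours, with 3 of 7 called lower and 0 higher in run 2 and 4 lower and 2 higher in run 1. Proliferation markers were called higher for 8 of 8 and 7 of 8, and smooth muscle markers lower for 8 of 8 in both. The shares of all genes were 22.3% higher and 23.1% lower in run 2, and 26.8% and 26.5% in run 1. The part of these cells in the carrier values was not tested.

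The basolateral carrier Slc7a7 was 27.02 to 33.4 FPKM in wildtype and knockout tumours and 18.2 to 22.1 in colon, and was called higher (log2 change 0.58, SE 0.12, adjusted p = 0.00386). The serotonin carrier Slc6a4 was 0.799 to 8.87 FPKM in the tumours and 3.84 to 16.2 in colon (log2 change -1.52, SE 0.41, adjusted p = 0.0119), and with the knockout groups alone the adjusted p was 0.58. With only the groups compared in the fit, Slc6a4 and Slc36a1 had adjusted p-values of 0.0584 and 0.0534. The basolateral Slc43a2 was not called in run 1, at 6.52 and 6.87 FPKM in heterozygous tumours. Colon of run 1 held 2.84 to 3.25 FPKM of it, apart from 16.1 in wildtype colon 2. The missing call of Slc43a2 depended on that library, the one that stood apart.

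Slc38a4, a sodium-coupled carrier of neutral amino acids best known from liver, had the largest rise of any member in each of the 3 comparisons of ApcMin tumours with normal tissue. It lies at chr15:96994820-97055956. It was 0.260 to 0.369 FPKM in normal colon and 0.163 to 1.25 in normal duodenum. The highest duodenum value, that of wildtype duodenum 2, was 0.1985 in run 1 and 2.31 in run 2. In ApcMin colon tumours Slc38a4 was 34.7 and 20.7 FPKM when wildtype, 11.2 and 3.25 when heterozygous and 5.89 and 17.0 when knockout. In ApcMin duodenal tumours it was 111 and 39.5 FPKM, and in ileum tumours 118 and 106 when wildtype and 131 and 74.6 when knockout. All 12 ApcMin tumours lay above every other specimen. The 3 tumours of Apc+ knockout mice measured 2.56 and 0.0915 FPKM in duodenum and 0.577 FPKM in colon.

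The changes of Slc38a4 were 3.74 (SE 0.37, adjusted p = 0.000107) in wildtype and knockout colon tumours, 2.47 (SE 0.59, adjusted p = 0.00808) in heterozygous colon tumours and 5.84 (SE 0.64, adjusted p = 0.00115) in heterozygous duodenal tumours. Without duodenal tumour 2, the specimen that stood apart, the last was 6.58 (adjusted p = 0.00238). Without heterozygous colon tumour 1 the second was 1.71 (adjusted p = 0.0919). The 250 bases before its outermost RefSeq start (GRCm38.p6, chr15:97055957-97056206, minus strand) are shown because the gene had the largest rise. They are all in lower case, as none of the motifs occurs in them. The gene has 3 annotated starts with a window, of which the middle one holds TATAAA.
Slc38a4: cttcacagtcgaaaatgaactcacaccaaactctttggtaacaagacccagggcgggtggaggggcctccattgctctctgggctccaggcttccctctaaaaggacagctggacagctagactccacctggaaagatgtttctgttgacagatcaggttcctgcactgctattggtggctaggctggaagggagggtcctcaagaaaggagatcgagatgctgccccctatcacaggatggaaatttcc

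**Figure D4:**
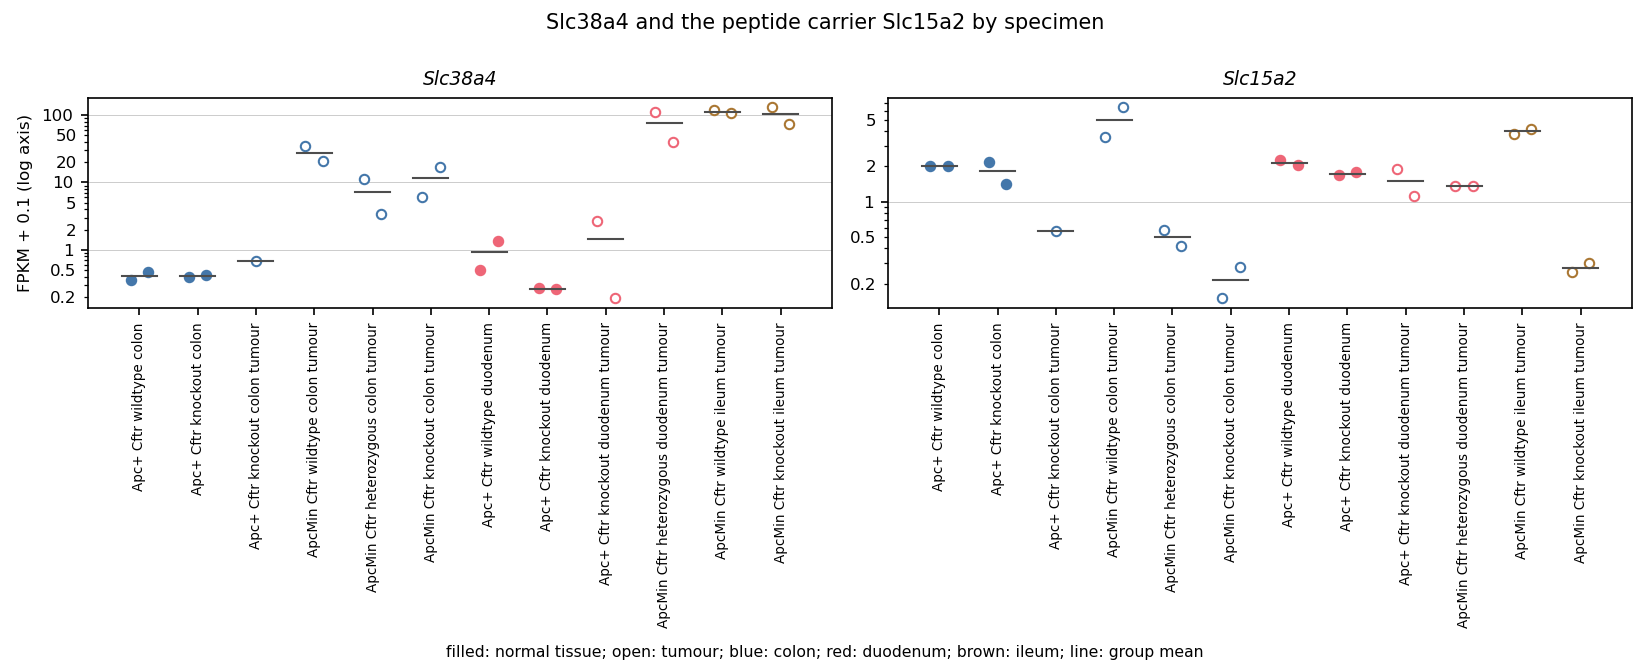
FPKM plus 0.1, on a log axis, of Slc38a4 and Slc15a2 in each of the 23 specimens (points) by group, with lines at group means. For Slc38a4 the 12 ApcMin tumours lie between 3.25 and 131 FPKM and all other specimens at or under 2.56 FPKM. For Slc15a2 the 4 ApcMin wildtype tumours are the highest and the 4 ApcMin knockout tumours the lowest.

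In duodenal tumours of both kinds Slc36a1 was called lower and Slc6a9 higher than in duodenum, and the other 7 apical carriers were not called. Without ApcMin tumour 2, the specimen that stood apart from its label, Slc36a1 was not called in the ApcMin comparison. In the Apc+ tumours all 8 apical carriers had a negative change, with a median of -0.84, and in the ApcMin tumours 6 of 8 did, with a median of -0.14, or 8 of 8 with a median of -0.64 when tumour 2 was left out. When ApcMin tumour 1 was left out instead, 3 of 8 had a negative change, with a median of 0.39. In the Apc+ knockout mice 4 of 48 members were called against knockout duodenum (8.33%, beside 8.16% of all genes), 1 higher (3.94% of all genes) and 3 lower (4.23%). In ApcMin heterozygous tumours 9 of 48 were called against the duodenum of both genotypes in run 1 (18.8%, beside 19.0%), 5 higher (9.71% of all genes) and 4 lower (9.26%). Both shares are close to that of all genes. The comparisons share the knockout duodenum specimens. The number called in the first moved when any 1 of its specimens was left out, which leaves 1 specimen in a group. With only the 2 groups in the fit it was 0, beside 215 of all genes. In the second it was 4 with only the groups compared in the fit, beside 296 of all genes. With the wildtype duodenum as 2 samples it was 14, beside 4083 of all genes.

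Slc36a1 was 78.9 and 74.1 FPKM in knockout duodenum, 21.3 and 10.1 in the tumours of those mice (log2 change -2.30, SE 0.58, adjusted p = 0.03), and 20.6 and 10.6 in ApcMin tumours against 74.0 to 83.7 in duodenum of run 1 (log2 change -2.36, SE 0.54, adjusted p = 0.0201). All 4 tumours lay below every duodenum specimen. The first call ended with only its groups in the fit (adjusted p = 0.0687) and without knockout duodenum 1, duodenum 2 or tumour 2 (adjusted p = 0.144, 0.105 and 0.218), and the second without ApcMin tumour 2 (adjusted p = 0.0932). The glycine carrier Slc6a9 was 6.15 and 8.03 FPKM in Apc+ tumours against 2.48 and 3.05 in knockout duodenum (log2 change 1.10, SE 0.16, adjusted p = 0.00153), and 8.78 and 8.37 in ApcMin tumours against 2.33 to 3.27 (log2 change 1.34, SE 0.17, adjusted p = 0.00196; without tumour 2 1.37). Of the 4 members called in the Apc+ tumours it was the 1 called without each specimen in turn, and with only the groups compared its adjusted p there was 0.0744.

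The heavy chain Slc3a2 was 103 and 71.2 FPKM in Apc+ tumours and 152 and 162 in knockout duodenum (log2 change -0.86, SE 0.19, adjusted p = 0.016), and 114 and 93.4 in ApcMin tumours against 153 to 164 (log2 change -0.62, SE 0.18, adjusted p = 0.0495). Its light chain Slc7a7 was 126 and 77.7 FPKM in Apc+ tumours and 165 and 186 in knockout duodenum (log2 change -0.82, SE 0.19, adjusted p = 0.0187). Both Apc+ calls ended without knockout tumour 2 (adjusted p = 0.152 and 0.154) and without either duodenum specimen (adjusted p = 0.0725 and 0.0863 for Slc3a2, 0.0652 and 0.108 for Slc7a7), and with only the groups compared (adjusted p = 0.115 and 0.175). That of Slc7a7 also ended in run 1 alone (adjusted p = 0.0865). The ApcMin call of Slc3a2 ended without ApcMin tumour 2 (adjusted p = 0.19) or either knockout duodenum specimen (adjusted p = 0.0857 and 0.0986). It also ended with a pseudocount of 0.1 (adjusted p = 0.0514), without the filter (0.0715), after quantile normalisation (0.13) and with only the groups compared (0.112). Knockout duodenum 1 also held the highest sum of pancreatic acinar markers of any specimen, 1979 FPKM.

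In ApcMin duodenal tumours 3 growth-type carriers were called higher. Slc1a4 was 9.44 and 9.72 FPKM against 2.59 to 3.06 in duodenum (log2 change 1.43, SE 0.24, adjusted p = 0.00609), Slc7a6 was 6.48 and 5.01 against 2.58 to 3.70 (log2 change 0.76, SE 0.16, adjusted p = 0.0135), and Slc43a1, a facilitated carrier of branched-chain amino acids named after its values were seen, had a change of 0.80 (adjusted p = 0.00992). Without ApcMin tumour 1 the adjusted p of Slc7a6 was 0.0506, and with only the groups compared 0.108. Without tumour 2 the changes of Slc1a4, Slc7a6 and Slc43a1 were 1.41, 0.91 and 0.87, all called, and Slc7a5 was called as well (0.93, adjusted p = 0.0376). The glutamate carrier Slc1a3 (log2 change -1.39, SE 0.39, adjusted p = 0.0403) and the nucleobase carrier Slc43a3 (log2 change -0.45, SE 0.12, adjusted p = 0.0367) were called lower. Each lost its call without knockout duodenum 2 (adjusted p = 0.0814 and 0.0774), Slc1a3 also without knockout duodenum 1 (0.0757), and Slc43a3 also without ApcMin tumour 1 (0.0664) or 2 (0.109). Both calls also ended with only the groups compared (adjusted p = 0.222 and 0.157). That of Slc1a3 ended with a pseudocount of 0.1 (0.0703) and without the filter (0.0649), and without ApcMin tumour 2 its change was -0.56 (adjusted p = 0.0214).

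The 2 ApcMin tumours labelled duodenal, from 1 animal number, differed in most absorptive carriers, as they did in Tmprss15, Lct, Fabp1, Gata4 and Naaladl1. Tumour 1 and tumour 2 measured 163 and 406 FPKM of Slc6a19, 150.2 and 267 of Slc15a1, 96.2 and 265 of Slc7a9, 78.2 and 172 of Slc3a1 and 7.88 and 71.0 of Slc1a1. For each of these 5 apical carriers tumour 2 was above every normal duodenum specimen and tumour 1 below. The basolateral Slc7a8 went the other way, at 74.4 and 29.0 FPKM. Paneth cell markers summed to 14120 and 44450 FPKM, and small-intestinal enterocyte markers to 21960 and 11410 FPKM, and their part in these values was not tested.

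**Figure D5:**
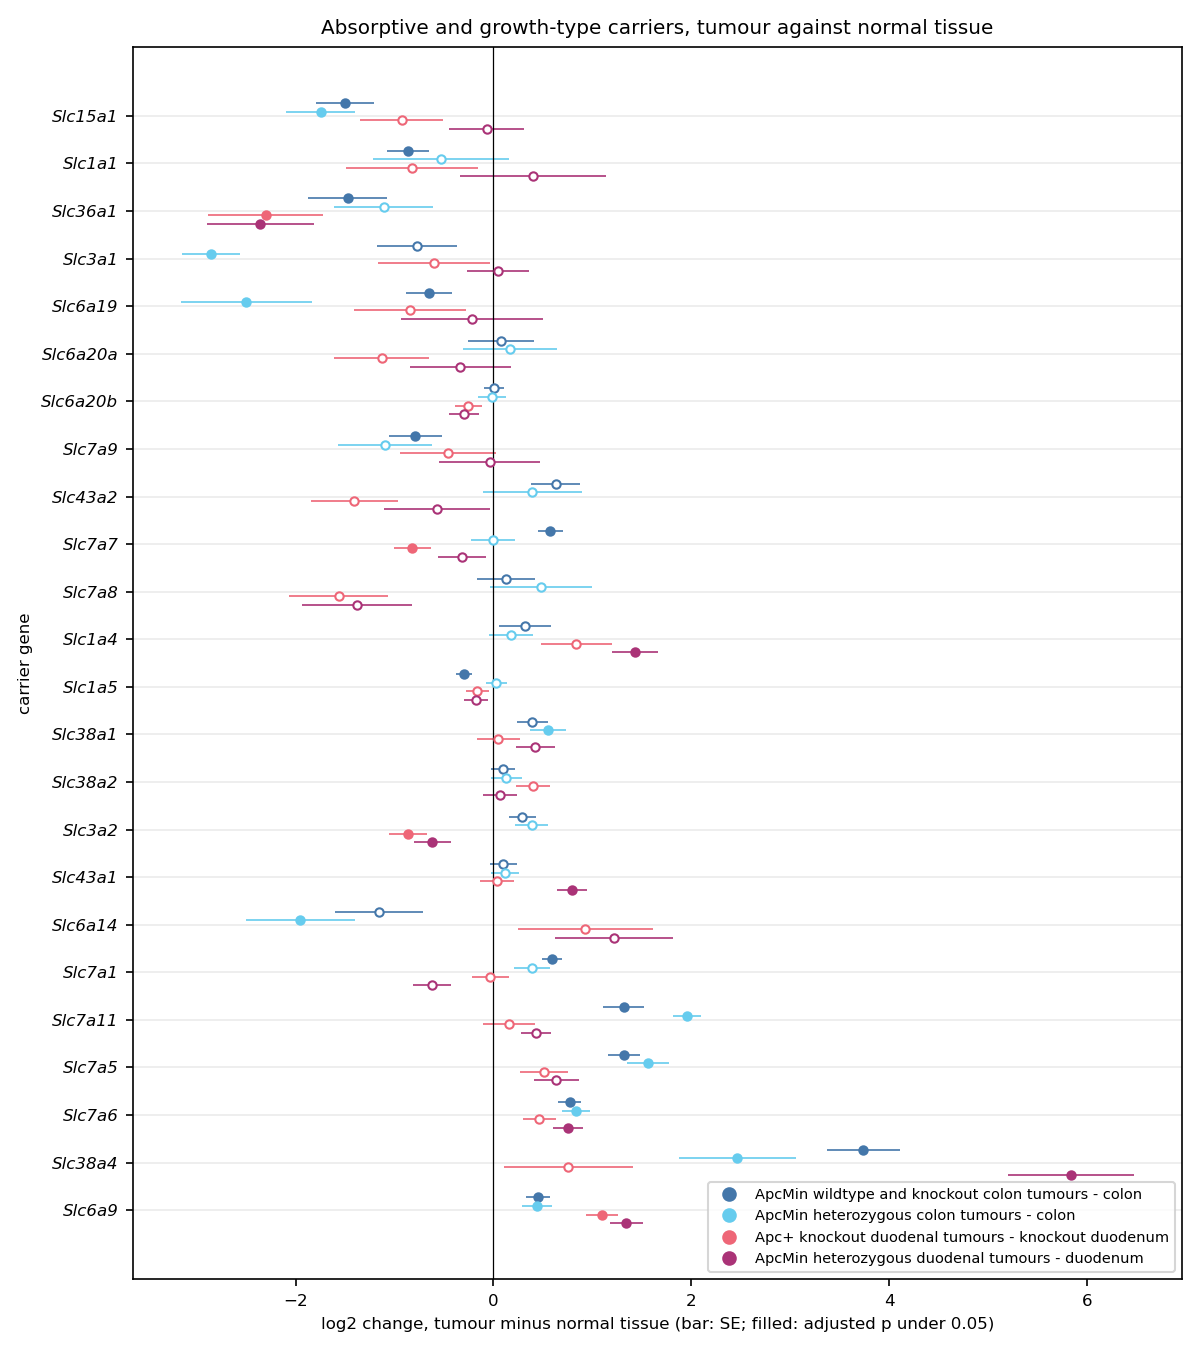
Log2 change, tumour minus normal tissue (points; bars are SE; filled where the adjusted p is under 0.05), of the tested apical, basolateral and growth-type carriers and of Slc38a4 and Slc6a9 in 4 tumour comparisons. Slc7a5, Slc7a6 and Slc7a11 are filled and to the right in both colon comparisons, Slc36a1 is filled and to the left in both duodenal ones, and Slc38a4 is filled in the 3 ApcMin comparisons.

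ApcMin tumours of the ileum had higher levels of most absorptive carriers than ApcMin colon tumours, taken over the wildtype and knockout groups. Of 48 members, 15 were called higher in ileum tumours and 5 higher in colon tumours, 41.7% beside 24.1% of all genes. Of the apical carriers 6 of 8 and of the basolateral carriers 3 of 3 were called higher in ileum tumours, beside 13.0% of all genes. Slc6a19 was 258 and 202 FPKM in wildtype ileum tumours, 139 and 152 in knockout ileum tumours and 0.653 to 11.3 in colon tumours (log2 change 5.46, SE 0.40, adjusted p = 2.33e-06). Slc7a9 was 78.2 to 90.7 against 3.20 to 11.4 FPKM (log2 change 3.93, SE 0.34, adjusted p = 8.05e-06), Slc6a20a 27.2 to 55.3 against 0.886 to 6.49 FPKM (log2 change 3.43, SE 0.34, adjusted p = 1.72e-05) and Slc7a15 14.3 to 46.2 against 0.523 to 1.59 FPKM (log2 change 3.82, SE 0.34, adjusted p = 8.62e-06). None of these groups overlapped. The basolateral Slc43a2 was 42.96 to 52.8 against 3.79 to 7.99 FPKM (log2 change 2.91, SE 0.31, adjusted p = 2.97e-05), Slc7a7 69.7 to 82.0 against 27.02 to 33.4 FPKM (log2 change 1.29, SE 0.13, adjusted p = 2.28e-05) and Slc7a8 11.6 to 27.1 against 2.60 to 6.67 FPKM (log2 change 1.67, SE 0.36, adjusted p = 0.00434). Ileum tumours lay above colon tumours in all 3. Slc36a1 was not called, at 5.51 to 11.8 FPKM in ileum tumours and 7.05 to 32.5 in colon tumours (log2 change -0.46, SE 0.41, adjusted p = 0.459).

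Carriers higher in colon tumours included Slc6a14, at 50.4 to 182 FPKM against 1.10 to 18.2 in ileum tumours (log2 change -4.61, SE 0.48, adjusted p = 2.69e-05). Slc38a2 was 48.0 to 58.0 against 32.6 to 38.02 FPKM (log2 change -0.58, SE 0.12, adjusted p = 0.0037) and Slc1a5 45.9 to 58.1 against 36.1 to 39.1 FPKM (log2 change -0.41, SE 0.08, adjusted p = 0.00334). Slc7a11 was 2.31 to 5.97 against 1.14 to 2.11 FPKM (log2 change -0.77, SE 0.19, adjusted p = 0.00972), and with only the groups compared in the fit its adjusted p was 0.0745, with the wildtype groups alone 0.058 and with the knockout groups alone 0.11. The call of Slc38a4, higher in ileum tumours (log2 change 2.59, SE 0.46, adjusted p = 0.00126), ended with the wildtype groups alone (adjusted p = 0.0639). Of the peptide digestion list, 10 of 12 were called higher in ileum tumours and 0 lower, beside 13.0% and 11.1% of all genes.

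ApcMin tumours labelled knockout differed from those labelled wildtype in 1 called member, Slc15a2 (chr16:36750177-36784962), in the colon (1 of 48, 2.08%) and in the ileum (1 of 48, 2.08%). It is a high-affinity carrier of di- and tripeptides related to Slc15a1, and it was singled out after its values were seen, since its highest group mean, 4.88 FPKM, is under the 5 FPKM set for naming. Slc15a2 measured 3.45 and 6.31 FPKM in wildtype colon tumours, 0.0504 and 0.176 in knockout colon tumours, 3.70 and 4.10 in wildtype ileum tumours and 0.149 and 0.1995 in knockout ileum tumours. The change was -2.36 (SE 0.21, adjusted p = 0.000953) in colon, where 0.0638% of all genes were called (0.00709% higher and 0.0567% lower), and -2.06 (SE 0.21, adjusted p = 0.00444) in ileum, where 0.121% were (0.0567% higher and 0.0638% lower). With only the 2 groups in the fit the colon call ended (adjusted p = 0.958). The 8 specimens come from 1 wildtype and 1 knockout animal number.

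In normal tissue, levels of Slc15a2 overlapped between the Cftr labels in colon and did not in duodenum. Colon held 2.10 and 1.33 FPKM in knockout mice and 1.911 and 1.925 FPKM in wildtype mice. Duodenum held 1.58 and 1.69 FPKM in knockout mice and 2.18 and 1.95 FPKM in wildtype mice. Neither difference was called. ApcMin heterozygous colon tumours held 0.478 and 0.322 FPKM, lower than colon of run 1 (log2 change -1.05, SE 0.15, adjusted p = 0.000693), heterozygous duodenal tumours 1.26 and 1.26 FPKM, and Apc+ knockout duodenal tumours 1.81 and 1.03 FPKM. Over these tissues and tumours of both Apc genotypes, specimens with the knockout label ranged from 0.0504 to 2.10 FPKM.

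No other member was called between those genotypes. The apical carriers Slc15a1 (60.0 and 26.6 FPKM in knockout colon tumours, 7.78 and 10.6 in wildtype ones) and Slc6a19 (11.3 and 4.69 against 1.59 and 0.653 FPKM) were apart but did not pass (adjusted p = 0.13 and 0.219). Slc15a1 passed without wildtype tumour 2 (adjusted p = 0.0194) and without knockout tumour 2 (adjusted p = 0.024), when 8 and 3 members were called, 16.7% and 6.25% beside 13.6% and 0.731% of all genes. All 15 small-intestinal enterocyte markers had a positive change there, none of them called, with a sum of 623 to 831 FPKM in knockout and 152 to 591 FPKM in wildtype colon tumours. Their part in the carrier values was not tested. The difference between the genotype effects in ileum and colon tumours was called in 0 of 48 members and 0% of all genes, and 5 members and 676 genes had an unadjusted p under 0.05 in limma.

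Of the carriers with other roles, the creatine carrier Slc6a8 was called lower in both colon tumour comparisons, at 47.3 to 132 FPKM in wildtype and knockout tumours against 95.7 to 148 in colon (log2 change -0.58, SE 0.18, adjusted p = 0.0205), and at 60.2 and 75.5 FPKM in heterozygous tumours against 95.7 to 150.5 (log2 change -0.88, SE 0.22, adjusted p = 0.0111). The glycine carrier Slc6a9 was called higher in both (log2 change 0.45, SE 0.12, adjusted p = 0.0113 in run 2 and log2 change 0.44, SE 0.15, adjusted p = 0.0398 in run 1), the second not without the run 1 library of wildtype colon 2 (adjusted p = 0.0981). On the lysosomal list, the peptide and histidine carriers Slc15a4 and Slc15a3 ran from 5.74 to 13.7 and from 1.64 to 8.72 FPKM over all specimens, and the glutamine carrier Slc38a7 from 4.67 to 7.35 FPKM. Slc15a3 was called higher in both ApcMin colon tumour comparisons (log2 change 0.57, SE 0.15, adjusted p = 0.012 in run 2; log2 change 0.79, SE 0.11, adjusted p = 0.000698 in run 1) and overlaps Tmem132a on the opposite strand by 1541 exon bases. Slc38a10, of the sodium-coupled glutamine carrier family, ran from 26.9 to 39.1 FPKM. Of the 19 members not tested, Slc7a12 was listed at 0 in every specimen, and the highest values were 1.22 FPKM for Slc6a18, an apical carrier best known from kidney, and 1.12 FPKM for Slc6a13.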

How the data were processed

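Polyadenylated RNA of 23 mouse specimens was sequenced, and the authors deposited 1 table of FPKM values for 23356 genes in 68 columns. Per the submitters' processing notes, the tools were FastQC, TopHat2 2.0.13 and Cuffnorm, with build mm10. FPKM holds no counts, so a count test could not be used and each column's depth is known only relative to the others.

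Columns were averaged per specimen and grouped by the labels. The 14098 genes that reached 1 FPKM in 2 or more specimens were fitted with limma 3.58.1 in R 4.3.3 on log2(FPKM + 1), all groups in 1 fit, with Benjamini-Hochberg adjustment over all of them at 0.05. The fit was tested on simulated data. ApcMin wildtype and knockout colon tumours were set against colon in run 2, and heterozygous tumours against normal tissue in run 1, since those tumours were sequenced in those runs. The wildtype duodenum specimens entered as 1 sample.

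Members named with values passed in some comparison with a highest group mean of 5 FPKM or more (there, the 4 largest rises and falls per comparison) or were among the 3 highest of their role list. Other members were named after their values were seen. The members and gene lists were chosen with earlier results of these data known.

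The settings varied were the pseudocount (0.1), the filter (none), the scaling (quantile normalisation), the groups in the fit (only those compared), a replicate block, the run, each specimen in turn, the wildtype duodenum (as 2 samples) and the run 1 library of wildtype colon 2 (omitted). Fits of 1 Cftr genotype alone were added after seeing the data. Normal colon and normal duodenum of the same Apc+ genotype and number share an animal per the labels. Their deviations from the group means correlated at 0.0332 in knockout and 0.0103 in wildtype mice, across genes.

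Promoter windows are from RefSeq (GRCm38.p6), and 37 tested members had one. Gene positions and exon overlaps are from GENCODE M21 on GRCm38.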

Additional observations from a re-analysis of the deposited data

Results flagged for a closer look

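The single colon tumour of an Apc+ Cftr knockout mouse entered no comparison. Its Slc15a3 level, a lysosomal carrier of histidine and peptides, was 8.72 FPKM (8.91 in run 1 and 8.53 in run 2), against 1.64 to 2.56 FPKM in the 4 normal colon specimens. Its Slc7a11 level, the cystine-glutamate exchanger, was 6.47 FPKM (6.09 in run 1 and 6.84 in run 2), against 0.547 to 0.738 FPKM in normal colon. Both were picked out because they reached at least 5 FPKM and at least 2 times the highest normal colon specimen in a specimen outside the comparisons. In this tumour the macrophage markers summed to 283 FPKM and the endothelial markers to 112 FPKM, each the highest of all specimens, against 137 to 174 and 62.9 to 83.5 FPKM in normal colon, and their part in these levels was not tested. With 1 specimen there is no test.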

How the results depend on the processing

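Over 60 pairs of a named member and a comparison, 873 values under other settings were obtained. Direction and side of the threshold were kept in 805, the call was lost in 66 and gained in 2, and no direction reversed. Most pairs were chosen as the largest called changes of a comparison, so few reversals could arise among them. Outside these pairs, the change of Slc6a19 between knockout and wildtype colon changed sign without the run 1 library of wildtype colon 2. The count of members called depended on the setting as follows, with the number of all genes called in the same fit in brackets. Between knockout and wildtype duodenum, main count 0 (0), it was 2 (24) without the filter (Slc6a20b and Slc7a10). With wildtype duodenum as 2 samples it was 1 (31). For Apc+ knockout duodenal tumours, main count 4 (1151), it was 7 (1232) without the filter and 7 (1131) in run 2 alone. With only the groups compared it was 0 (215). For ApcMin colon tumours against colon, main count 24 (6401), it was 7 (1534) with the knockout groups alone. For heterozygous duodenal tumours, main count 9 (2675), it was 4 (296) with only the groups compared. With wildtype duodenum as 2 samples it was 14 (4083). Between knockout and wildtype ApcMin colon tumours, main count 1 (9), it was 0 (0) with only the groups compared. For ileum against colon tumours, main count 20 (3394), it was 13 (1656) with the wildtype groups alone.

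With each specimen left out in turn, the counts ran from 31 to 36 for duodenum against colon, 1 to 7 for Apc+ knockout duodenal tumours, 18 to 29 for ApcMin and 11 to 21 for heterozygous colon tumours, 7 to 10 for heterozygous duodenal tumours, 1 to 8 and 1 to 1 for knockout against wildtype colon and ileum tumours, 18 to 21 for ileum against colon tumours, and 0 to 0 for the others. A group left with 1 specimen is assumed to vary like the other groups.

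With a replicate block the counts were 42 for duodenum against colon (by animal, wildtype duodenum as 2 samples), 17 and 26 for ApcMin and heterozygous colon tumours, 9 for heterozygous duodenal tumours, 0 for Apc+ knockout duodenal tumours, 17 for ileum against colon tumours, and 0 and 2 (Slc15a2 and Slc6a20a) for knockout against wildtype colon and ileum tumours. Tumours and normal tissue share only a number, apart from the animals named. With the block the calls of Slc1a3 and Slc43a3 in heterozygous duodenal tumours ended (adjusted p = 0.104 and 0.0632), as did those of Slc6a4 and Slc36a1 in ApcMin colon tumours (0.0822 and 0.076) and of Slc7a11 between ileum and colon tumours (0.0525). The block leaves few degrees of freedom. With it, 56 of all genes were called for Apc+ knockout duodenal tumours, and 0 and 272 for knockout against wildtype colon and ileum tumours. With 2 specimens a group, small changes of low genes could not be resolved, and the FPKM values carry no counting error of their own.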
